A study of Homo sapiens with 4 samples.

Results

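Potassium channel genes were taken as the protein-coding genes on chromosomes 1 to 22 whose GENCODE release 44 name begins with KCN. The prefix covered 94 of 18773 coding genes, and all 94 are accounted for below. The cells were HG00731, a lymphoblastoid cell line (LCL), that is, B cells immortalised with Epstein-Barr virus, kept as a single unperturbed line with no treatment or time course. In HiChIP, chromatin is cross-linked, cut and re-ligated, and fragments bound by a chosen protein are pulled down, so that the reads give both the sites of that protein and the pairs of sites it holds together. SMC1, a subunit of the cohesin ring that extrudes loops, was profiled after sequential cross-linking with formaldehyde and ethylene glycol bis(succinimidyl succinate) (FA-EGS), and CTCF, the zinc finger protein at which extruding cohesin stalls, after formaldehyde alone. Each target had 2 replicates, which the authors merged into 1 peak list and 1 loop list, so every value below is a single pooled value without replicate error. Intervals are Wilson 95% intervals for shares of genes or loops and exact Poisson 95% intervals for counts of peaks. They cover counting error only, and no test was made, since genes are not replicates of a condition.

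Potassium channels let K+ leave or enter the cell and set the resting and repolarising membrane potential. Pore subunits fall into voltage-gated channels, calcium- or sodium-activated channels, inward rectifiers and tandem-pore (K2P) leak channels, and silent and auxiliary subunits modify the pores with which they assemble. Most are best known from neurons, heart and muscle, while KCNA3 (Kv1.3, voltage-gated) and KCNN4 (KCa3.1, calcium-activated) carry the K+ efflux that sustains calcium entry in activated lymphocytes. The files hold no expression values.

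On chromosomes 1 to 22 the lists held 94628 SMC1 peaks, 61417 CTCF peaks, 27785 loops labelled SMC1 and 79406 loops labelled CTCF. The depth of the libraries is unknown from these lists, but the study reports more reads for SMC1 than for CTCF. Depth as well as cross-linking therefore differed between the targets. All 27785 loops labelled SMC1 had a CTCF peak at an anchor and 11 had no SMC1 peak there, while all 79406 loops labelled CTCF had an SMC1 peak at an anchor and 3654 had no CTCF peak there. The numbers of loops that the study lists for each target also correspond to the opposite labels. Both observations point to exchanged labels, so loops labelled SMC1 are probably those of the CTCF experiment and the reverse. The loop lists are named by their labels below, and every loop value should be read with this in mind. As a coarse check of the cell type, 6 of 6 B cell markers had an SMC1 peak within 1 kb of a start. So did 1 of 6 T cell markers, 2 of 6 neuron markers and 64.2% of all coding genes. In the same order of markers, a CTCF start peak was present in 4, 2 and 0, and a loop labelled CTCF in 6, 4 and 0. An SMC1 peak in the body, present in 6, 5 and 5, hardly separated the lists.

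The sequence beneath some CTCF peaks at channel gene starts is shown first, for peaks with a match to the CTCF motif. Such a match stood at the strongest CTCF start peak of 17 of 33 channel genes, so the sequences do not stand for all. KCNJ11 (−log10 q 202) and KCNH1 (119) had strong CTCF start peaks but no match over the threshold given next. A matrix of the CTCF motif, 19 bp wide, was learned from the CTCF summits themselves on odd-numbered chromosomes and scanned on both strands over the 601 bp around each summit, with a threshold that 5% of windows 2000 bp away passed. Capitals mark the 19 bp match and lower case the 5 bases on either side, all from hg38 and written 5′ to 3′ on the strand of the motif.
Locus KCND2: catacAAGCCACTAGATGGCGTGGatggc
Locus KCNT1: cggcgCGGCCGGCAGGGGGCGCGCgcgga
Locus KCNIP2: cctcgCAGCCACACGGGGGCGCCCccgcc
Locus KCNA2: ttccaCCACCACCAGATGGCAGCAcaaag
Locus KCNK7: gttcaAGGCCACCAGAGGGCAGCCttctg
Locus KCNN4: aagttCTTCCAGTAGGCGGCAGCTctttg

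The KCND2 match lay between genes at chr7:120272357-120272375 on the minus strand, 809 bp upstream of the nearest coding transcript start. The KCNT1 match, at chr9:135702088-135702106 on the plus strand, lay 88 bp upstream of a KCNT1 start and in an intron of the neighbouring SOHLH1. The KCNIP2 match, at chr10:101840834-101840852 on the plus strand, fell in a KCNIP2 intron, 971 bp upstream of the nearest of its 7 starts. In KCNA2 the match at chr1:110630934-110630952 was intronic, 531 bp downstream of a start. The KCNK7 match, at chr11:65593964-65593982, was the highest scoring of the 6 shown (21.2 bits) and the KCNN4 match, at chr19:43780059-43780077, the lowest (11.5 bits, against a threshold of 11.4). KCNIP2 lies on an even-numbered chromosome, whose summits were not used to learn the matrix.

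A smaller share of potassium channel genes than of other coding genes had a cohesin or CTCF peak at a start, while the shares with a loop were close. An SMC1 peak lay within 1 kb of a start in 44 of 94 channel genes (46.8%, interval 37.0 to 56.8%), against 64.2% of all coding genes. Weighted to the length deciles of the channel genes, the other coding genes stood at 66.0%, a difference of -19.2 percentage points for the channel genes. A CTCF peak lay there in 33 channel genes (35.1%, 26.2 to 45.2%), against 46.0% of all coding genes and 47.7% at matched length. Both intervals lay wholly below the length-matched value. The differences depended on the window, since with 2.5 kb around a start they were -12.3 points for SMC1 and -4.28 for CTCF, whose 1 kb difference was -12.6. A loop of the list labelled SMC1 had an anchor within 1 kb of a start in 26 channel genes (27.7%, 19.6 to 37.4%), against 26.3% of all coding genes and 25.4% at matched length, and a loop of the list labelled CTCF in 48 (51.1%, 41.1 to 60.9%), against 49.3% and 49.6%.

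**Figure D1:**
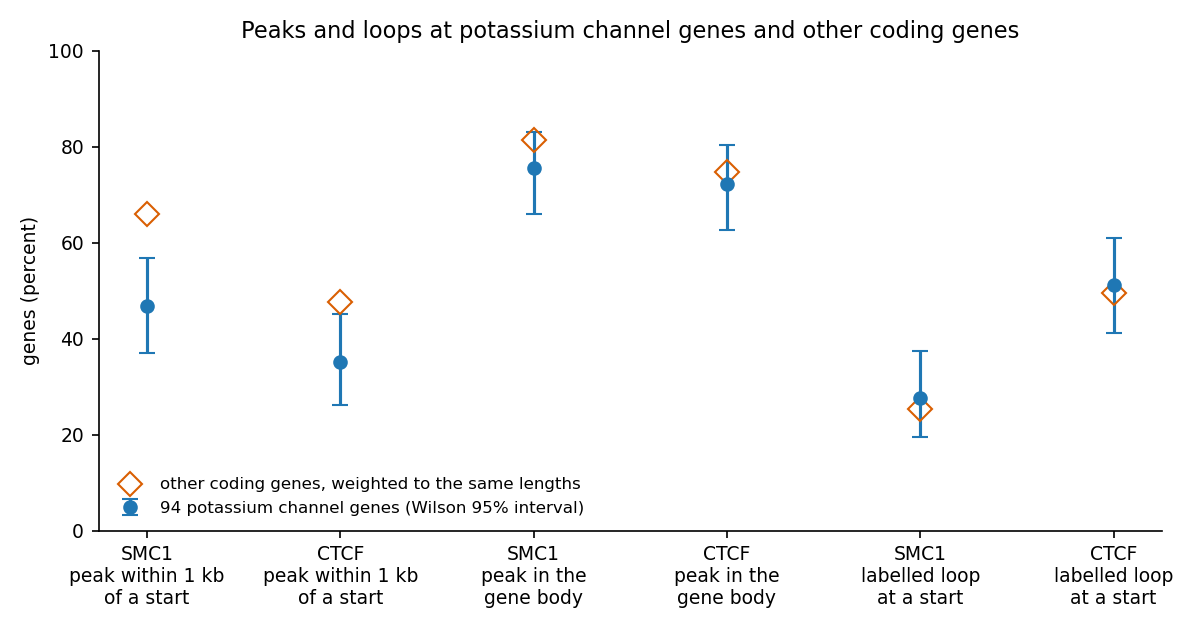
Percent of the 94 potassium channel genes (circles, bars are Wilson 95% intervals) and of the other coding genes weighted to the same lengths (diamonds) with an SMC1 or CTCF peak within 1 kb of a start, a peak in the gene body, or a loop with an anchor within 1 kb of a start. The diamonds lie above the bars for start peaks (66.0% over 46.8% for SMC1, 47.7% over 35.1% for CTCF) and within them for gene bodies and loops.

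The 2 targets shared most of their occupied starts. Both peaks were present at 29 channel genes (30.9%, against 45.8% at matched length), SMC1 alone at 15 (16.0%, against 20.2%), CTCF alone at 4 (4.26%, against 1.86%) and neither at 46 (48.9%, 39.1 to 58.9%, against 32.1%). The 4 starts with CTCF alone were those of KCNA6, KCNJ10, KCNMB3 and KCNS2, with −log10 q-values of 3.89, 3.99, 5.81 and 20.9. Channel genes were more isolated than others, since 11 of 94 (11.7%) had a start of another coding gene within 5 kb, against 26.8% of the other coding genes. Among genes without such a neighbour, an SMC1 start peak was present in 44.6% of channel genes and 59.7% of the others, so the difference was also present there.

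Sequence at the starts was compared next, because start peaks were more frequent at CpG-rich starts in the whole gene set. In the 1 kb around the Ensembl canonical start, channel genes had a median GC content of 65.3% and a median CpG observed/expected ratio of 0.689, and the other coding genes 61.5% and 0.731. The 33 channel genes with an SMC1 peak within 1 kb of that start had a median ratio of 0.812, and the 61 without had 0.574. Coding genes were then split into tertiles of this ratio. In the lowest tertile, 4 of 37 channel genes (10.8%, 4.29 to 24.7%) had an SMC1 peak, against 26.6% of the other genes. In the middle tertile the values were 11 of 24 (45.8%, 27.9 to 64.9%) and 73.3%, and in the highest 18 of 33 (54.5%, 38.0 to 70.2%) and 79.0%. For SMC1 the interval of the channel genes lay below the value of the others in each tertile. For CTCF the shares were 8.11%, 37.5% and 36.4%, against 15.7%, 47.4% and 55.7%, and the interval of the channel genes excluded the value of the others in the highest tertile alone (22.2 to 53.4%). Some CpG-rich starts carried neither peak, as in KCNMA1, with a ratio of 0.978 and no peak within 1 kb of any of its 36 starts. KCNIP4 (ratio 0.826) and KCNC1 (0.862) also had neither peak.

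**Figure D2:**
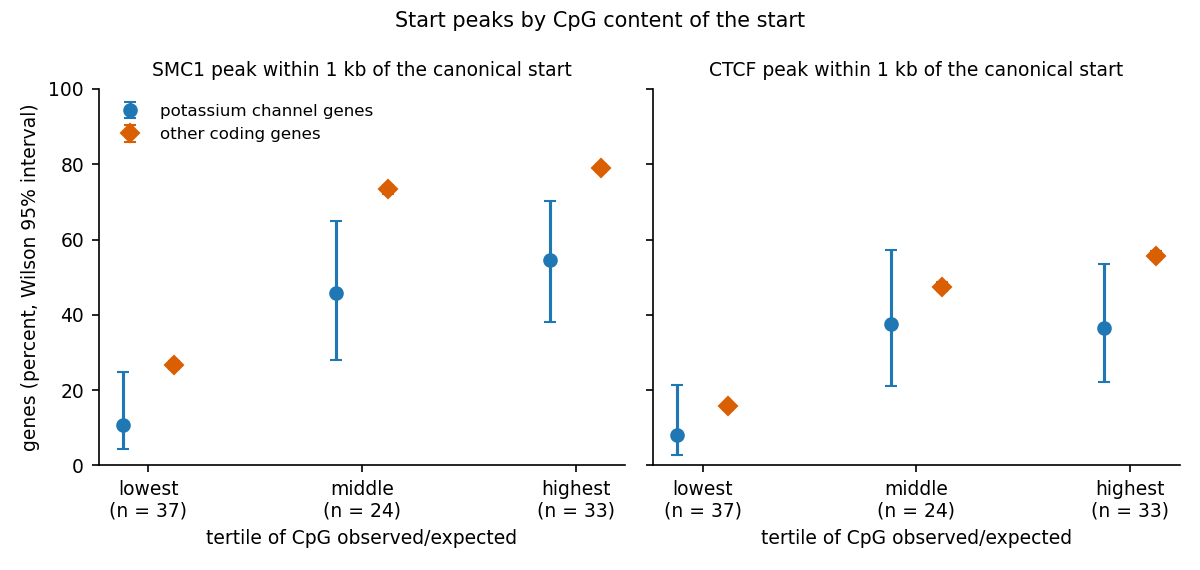
Percent of genes with an SMC1 (left) or CTCF (right) peak within 1 kb of the canonical start, by tertile of the CpG observed/expected ratio over all coding genes, for potassium channel genes (circles) and other coding genes (diamonds), with Wilson 95% intervals. The SMC1 share of channel genes rises from 10.8% to 54.5% over the tertiles and lies below the 26.6% to 79.0% of the other genes.

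Where a channel gene start did carry an SMC1 peak, its fold enrichment was like that elsewhere but its −log10 q-value was lower. Peaks of both targets lay farther from the start. The strongest SMC1 start peak had a median −log10 q-value of 25.9 and a median fold enrichment of 4.47 over the local background in the 44 channel genes, and 33.1 and 4.47 in 12009 other coding genes. The first quartile of −log10 q was 9.73 and 18.0. With only peaks of −log10 q of at least 10, 34.0% of channel genes and 59.6% of length-matched genes had an SMC1 start peak. The summit lay a median of 554 bp from the nearest start in channel genes and 292 bp in the others. For CTCF the median −log10 q-value was 33.6 in 33 channel genes and 27.3 in 8605 others, with 6.65-fold and 5.67-fold enrichment, and the summit distance was 513 and 308 bp. With the requirement that the start itself lie inside the peak, 16 of 94 channel genes and 44.6% of length-matched genes had an SMC1 start peak. A CTCF motif match stood at the strongest CTCF start peak of 17 of 33 channel genes (51.5%, 35.2 to 67.5%), against 37.0% of the other coding genes with such a peak and 42.5% of all CTCF peaks. It stood at the strongest SMC1 start peak of 19 of 44 (43.2%, 29.7 to 57.8%), against 25.6% of the others. Motif strand followed the gene in 8 of the 17 CTCF peaks and opposed it in 9.

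Named by the height of the peak, the leading SMC1 starts were those of KCNK7 (−log10 q 231), a K2P subunit not known to form a working channel alone, and of KCNIP2 (215), a calcium-binding auxiliary subunit of Kv4 channels. KCND2 (131), the Kv4.2 pore that such auxiliary subunits join, KCNA2 (130), the voltage-gated Kv1.2 pore, and KCNE1 (116), the small membrane subunit that slows KCNQ1 currents, followed. The leading CTCF starts were those of KCND2 (215), KCNJ11 (202), the Kir6.2 pore of the ATP-sensitive channel, KCNT1 (188), a sodium-activated channel, and KCNIP2 (172). KCND2, KCNIP2 and KCNJ11 were high for both targets, with 131, 215 and 76.3 for SMC1. KCNT1 ranked high for CTCF and not for SMC1, with an SMC1 value of 22.5 at a summit 139 bp from the start. The summits of SMC1 and CTCF nearly coincided in KCNJ11, at 30 and 32 bp from the start.

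KCNA3, the first of the lymphocyte channels, had an SMC1 peak of −log10 q 41.6 and 4.33-fold enrichment, with its summit 922 bp from the start, and a CTCF peak of 23.7 and 5.07-fold. Its canonical start was CpG-rich, at a ratio of 0.86. KCNN4 had a weak SMC1 start peak of 4.72 and 1.65-fold and a CTCF peak of 28.1 and 4.3-fold, at a CpG-poor start with a ratio of 0.221. In its body, however, KCNN4 held 4 SMC1 peaks over 14.4 kb, which is 27.7 per 100 kb and the highest density of any channel gene of at least 10 kb.

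**Figure D3:**
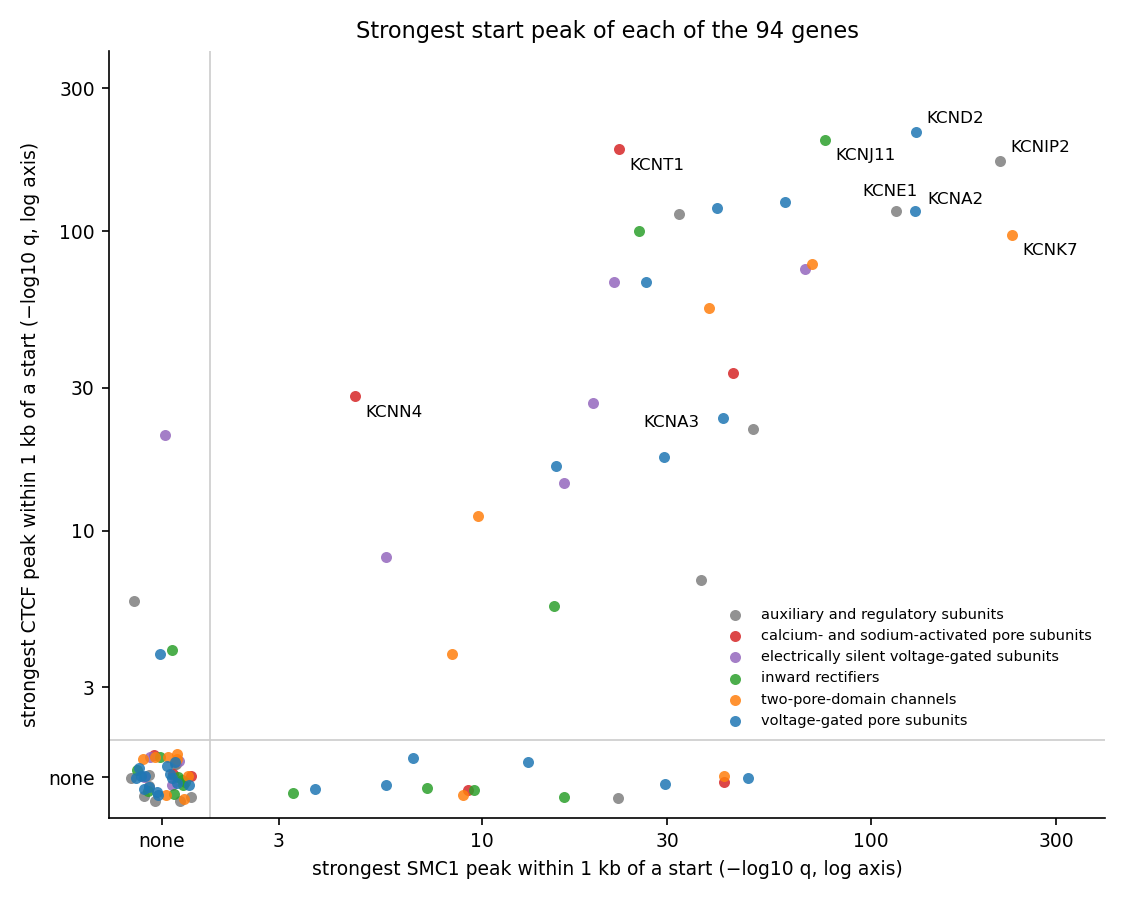
Strongest SMC1 (horizontal) and CTCF (vertical) peak within 1 kb of a start of each of the 94 potassium channel genes, as −log10 q on log axes, coloured by class. Genes without a peak stand at "none" with a small random shift, 46 of them in the lower left corner, and KCND2, KCNIP2, KCNA2, KCNE1 and KCNK7 lie at the upper right.

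By class, an SMC1 start peak was found in 14 of 29 voltage-gated pore subunits, 5 of 10 electrically silent subunits, 5 of 8 calcium- and sodium-activated subunits, 7 of 16 inward rectifiers, 7 of 15 K2P channels and 6 of 16 auxiliary subunits, a range from 37.5% to 62.5%. A CTCF start peak was found in 9, 6, 3, 4, 5 and 6 of them in the same order, a range up to 60.0%. No class reached the 64.2% of all coding genes for SMC1. For CTCF the electrically silent subunits, at 60.0%, lay above the 46.0% of all coding genes, and every other class lay below it. The classes were too small for their order to be read. Other channel lists are given beside them. Of the partner subunits without the prefix, such as ABCC8, the sulphonylurea receptor that joins KCNJ11, 2 of 9 had an SMC1 start peak. The count was 7 of 14 for voltage-gated sodium channels, 8 of 25 for calcium channel subunits and 0 of 4 for the HCN pacemaker channels. For CTCF the counts of these lists, partner subunits first, were 1, 5, 7 and 0.

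In gene bodies the shares were closer to those of other genes. An SMC1 peak overlapped the body of 71 channel genes (75.5%), against 76.6% of all coding genes and 81.5% at matched length, and a CTCF peak that of 68 (72.3%), against 68.2% and 74.7%. Summed over the bodies, 393 SMC1 peaks gave 2.97 per 100 kb (2.68 to 3.27), which is 0.736 times (0.665 to 0.813) the length-matched density of 4.03. The 292 CTCF peaks gave 2.2 per 100 kb (1.96 to 2.47), which is 0.918 times (0.816 to 1.03) the length-matched 2.4. From gene to gene the density varied widely. KCNN3, a small-conductance calcium-activated channel, held 30 SMC1 peaks in 172.8 kb (17.4 per 100 kb), and KCNIP2, KCNJ13 and KCNJ2, the latter both inward rectifiers, held 22.3, 18.6 and 17.6 per 100 kb from 2 to 4 peaks each.

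The longest genes did not behave alike. KCNIP4, an auxiliary subunit of Kv4 channels and the longest at 1220.2 kb, held 6 SMC1 and 7 CTCF peaks, or 0.492 SMC1 peaks per 100 kb. KCNMA1 (768.8 kb), the large-conductance calcium-activated pore, held 23 and 16, KCNMB2 (571.5 kb), an auxiliary subunit of that channel, 24 and 9, and KCNJ6 (514.0 kb), a G protein-gated inward rectifier, 13 and 12. KCNQ5 (577.1 kb), a slow voltage-gated channel of the M-current family, held 41 SMC1 and 16 CTCF peaks, the highest SMC1 count of all channel genes. KCND2 was alike with 27 SMC1 peaks in 477.2 kb. Among genes of 50.9 kb or longer, 24 of 46 channel genes (52.2%) and 72.8% of the other coding genes had an SMC1 start peak. For CTCF the values were 16 of 46 (34.8%) and 53.1%. Of the channel genes over 100 kb, 19 had no peak of either target at a start. They were KCNAB1, KCNB2, KCNC1, KCNC2, KCNE4, KCNH5, KCNH7, KCNH8, KCNIP1, KCNIP4, KCNJ3, KCNJ15, KCNK2, KCNK9, KCNK10, KCNMA1, KCNQ1, KCNT2 and KCNU1. The share of other coding genes over 100 kb with neither peak was not computed, so this count has no direct comparison. Most of the 19 still held peaks inside, from 1 SMC1 peak in KCNC2, KCNE4, KCNH5, KCNK2 and KCNU1 to 23 in KCNMA1. KCNJ3, over 160.5 kb, had no peak of either target in its body. KCNQ1 had no start peak although a start of TRPM5 lay 140 bp from a start of KCNQ1.

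**Figure D4:**
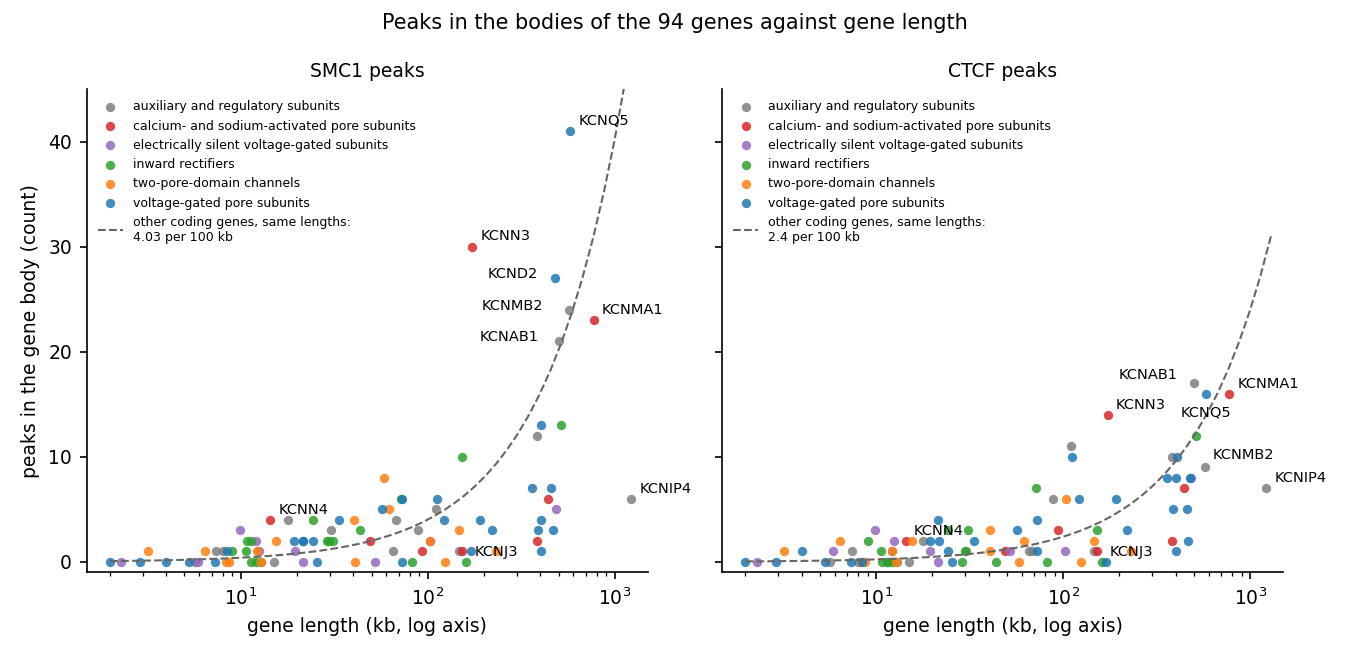
Number of SMC1 (left) and CTCF (right) peaks in the body of each of the 94 genes against gene length in kb on a log axis, coloured by class. The dashed line is a single density of the other coding genes (4.03 and 2.4 per 100 kb). It is weighted to the body lengths of all channel genes together and is not matched to the length of each gene. KCNQ5 (41 SMC1 peaks) and KCNN3 (30) lie above it and KCNIP4 (6) far below it.

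Loops with an anchor at a channel gene start came to 91 labelled SMC1 and 228 labelled CTCF. The same pair of 5 kb bins was called in both lists for 65, which is 71.4% of the first and 28.5% of the second. Loops were present in both lists at 25 channel genes, in the list labelled CTCF alone at 23, in the list labelled SMC1 alone at 1 (KCNK4) and in neither at 45. The list labelled CTCF is the larger, with 79406 loops against 27785. The matching shares of all loops and of all coding genes were not computed, so these counts are not read as a trait of channel genes. The median span was 150 kb and 120 kb, against 115 and 105 kb for loops at other coding genes. Where a motif match stood at both anchors, the motifs faced each other in 19 of 30 loops (63.3%, 45.5 to 78.1%) of the list labelled SMC1 and 36 of 52 (69.2%, 55.7 to 80.1%) of the list labelled CTCF, against 61.8% and 63.4% for loops at other coding genes. The far anchor reached a coding gene start in 16 (17.6%) and 32 (14.0%) of the loops, against 20.1% and 17.6%. KCNIP2 alone gave 28 of the 91 and 24 of the 228 loops, many in adjacent bins. The median spans and shares of loops therefore weigh this gene heavily, and their intervals treat dependent bin pairs as separate units.

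Loops reached many channel genes that carried no peak within 1 kb of a start. Among the 46 channel genes with neither start peak, 8 (17.4%) had a loop labelled SMC1 and 17 (37.0%) a loop labelled CTCF, against 9.62% and 18.5% of the other coding genes with neither peak. Among genes with both peaks the shares were 44.8% and 72.4%, against 41.4% and 72.3%. The anchor bins are 5 kb wide and can hold a peak farther than 1 kb from the start. Over all 91 loops labelled SMC1 and 228 labelled CTCF, 92.3% and 89.0% had an SMC1 peak in the channel gene's own anchor bin. These shares include genes with start peaks. They were not computed for the genes with neither peak or for loops at other coding genes. Of all loops in the lists, 99.96% and 100% had an SMC1 peak at an anchor, so the own anchor shares are not read as a trait of channel genes. Among the genes with neither start peak, no own anchor bin of KCNMA1 or KCNE3 held an SMC1 peak, while all those of KCNE2 and KCNJ15 did. Most loops of KCNC1 and KCNK17 also had an SMC1 peak in the own anchor bin. KCNC1, the fast Kv3.1 voltage-gated pore, had no peak within 1 kb of a start and yet 4 and 7 loops. The strongest, by read pairs and by their ratio to the expected number, joined the bins at chr11:17730001-17735000 and chr11:17975001-17980000 with 119 read pairs against 9.21 expected in the list labelled CTCF, and 64 against 8.48 in the list labelled SMC1. KCNJ15, an inward rectifier, had 1 and 14, and KCNK17, a K2P channel, 4 and 7. The strongest loop of KCNK17 spanned 145 kb and held 122 read pairs against 8.17 expected. KCNE2, an auxiliary subunit of voltage-gated channels, had 5 and 5.

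KCNIP2 had the most loops in both lists, 28 labelled SMC1 and 24 labelled CTCF, most of them from the bin at chr10:101840001-101845000. Its far anchors ran from 40 to 240 kb on 1 side and included starts of ARMH3 and HPS6. The loop of 170 kb held 65 read pairs against 5.36 expected in the list labelled SMC1 and 99 against 12.0 in the list labelled CTCF. KCNC4, a Kv3 voltage-gated pore, had 2 and 19 loops, and its largest count of read pairs was 85 against 13.7 expected, over 105 kb. KCNN3 had 3 and 14, KCNA2 had 6 and 11, and KCNJ11 had 6 and 9. Adjacent bins of a strong contact are listed as separate loops, so these numbers count bin pairs and not independent contacts.

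**Figure D5:**
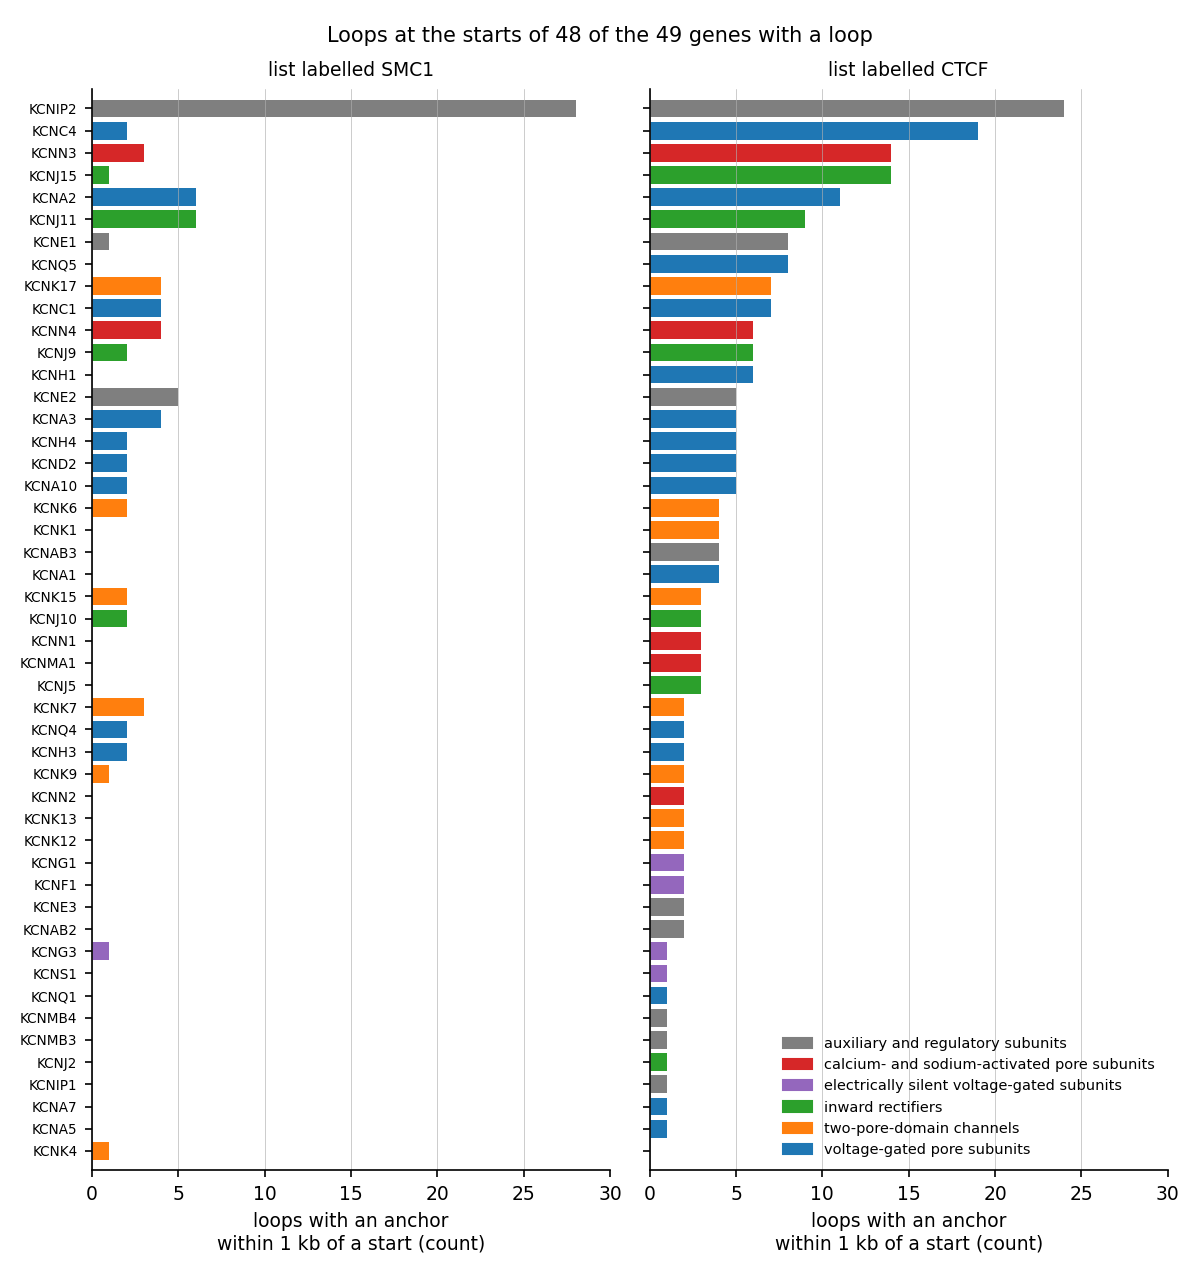
Number of loops with an anchor within 1 kb of a start for 48 of the 49 potassium channel genes with a loop, in the list labelled SMC1 (left) and labelled CTCF (right), coloured by class. KCNIP2 leads both panels with 28 and 24 loops, and KCNC4 has 2 and 19.

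Some loops joined channel genes to each other or to a partner. A loop of 40 kb on chromosome 1 joined a start of KCNA2 (bin 110630001-110635000) to the start of KCNA3 (bin 110670001-110675000), neighbouring Kv1 genes whose products can share a tetramer. It held 105 read pairs against 31.0 expected in the list labelled CTCF and 28 against 8.89 in the list labelled SMC1. KCNA2 was also joined to a bin at 110765001-110770000, which holds no coding start, with 135 against 17.1 and 32 against 5.09, and KCNA3 to the same bin with 45 against 15.3 and 14 against 5.13. A loop of 40 kb joined KCNJ9 and KCNJ10, neighbouring inward rectifiers, with 22 read pairs against 7.01 in the list labelled CTCF and 35 against 13.6 in the list labelled SMC1. KCNJ11 was joined to a start of ABCC8 in the list labelled CTCF alone, by a loop of 75 kb with 13 read pairs against 3.66. The strongest KCNJ11 loop, over 140 kb, held 59 against 5.23 and reached no coding start.

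Most loops at the start of KCNN4 were short. In the list labelled CTCF it had 6, of which the loop with the most read pairs joined 2 bins that both held KCNN4 starts, 10 kb apart, with 195 read pairs against 90.4. Its ratio to the expected number, 2.16, was the lowest of the 6, and the same bins held 135 against 47.0 in the list labelled SMC1. The loop of 35 kb held 172 against 47.3, a ratio of 3.64. Further KCNN4 loops reached starts of SMG9 (72 against 31.5) and PLAUR (13 against 3.03, over 115 kb) in the list labelled CTCF. KCNQ5 showed a like loop between its own starts over 500 kb, with 14 read pairs against 1.84, in the list labelled CTCF alone. KCND2 had 2 and 5 loops, with 53 read pairs against 5.28 over 285 kb for the strongest.

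At the other end of the range, 17 of the 94 channel genes had no peak of either target at a start or in the body, and 11 of them had no loop either. The matching shares of all coding genes were not computed, so these counts are not read as a trait of channel genes. The KCNJ12 start carried an SMC1 peak of −log10 q 16.3 and no CTCF peak, and KCNJ18 carried neither. These inward rectifiers are near-identical copies, so reads that matched both would have been lost to the mapping quality filter, and their values are uncertain.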

How the data were processed

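Peak and loop lists from HiChIP of HG00731 for SMC1 and for CTCF were used. Reads were mapped by the authors with BWA-MEM (hg38), filtered to MapQ above 30 and merged over 2 replicates, and MACS3 3.0.1 called peaks with the q-value cutoff 0.01 and reads extended to 200 bp. For each peak the authors deposited the fold enrichment, a ratio of the summit signal to the local background, and the −log10 of the q-value. For each loop the authors deposited the count of read pairs per pair of 5 kb bins and the number expected by MAPS. HiChIP has no input sample here. Versions come from the submitters' processing notes.

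Starts were those of coding transcripts in GENCODE release 44, and overlaps needed 1 bp. Other coding genes were weighted to the channel genes in 10 length bins. Genes were named by rule: KCNA3 and KCNN4, the 5 highest start peaks per target, the 5 genes with most loops per list, the 5 longest, the 5 of at least 10 kb with the densest SMC1 peaks, genes looped to each other, and genes over 100 kb without a start peak. Other genes were named after their values were seen, and 1 gene that the rule names is not reported here. The genes, lists and rules were chosen with earlier results of these data known. The motif window was set after hit rates at several widths were seen. Scripts (Python 3, pandas, scipy) were tested on simulated data.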

Additional observations from a re-analysis of the deposited data

How the results depend on the processing

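No paired analysis was possible because the authors merged the replicates of each target before calling peaks and loops, and for the same reason no replicate could be left out. Of 70 alternatives to the 8 comparisons, 63 kept the direction and stayed within the interval of the reported value, 5 changed sign and 2 moved further. The 63 include the exchange of the loop lists between the targets. It only repeats the reported difference of the other list (1.43 and 2.3 points) and is no separate check. The start peak differences stayed negative throughout, from -27.6 to -12.3 percentage points for SMC1 and from -14.8 to -4.28 for CTCF, both nearest 0 with 2.5 kb around a start. The loop differences were near 0 and changed sign. Without channel genes that have the start of another within 50 kb they were -0.792 points for loops labelled SMC1 and -0.582 for those labelled CTCF, and with the canonical start alone the latter was -1.52. The CTCF body difference became 0.549 when the summit had to lie in the body and 4.15 without length matching. Without length matching the body density ratios fell to 0.601 for SMC1 and 0.73 for CTCF, since density differs with gene length. An alternative restricted to genes without another coding start within 5 kb was chosen after seeing the data and gave -17.0 and -10.8 points for start peaks and 3.61 and 4.11 for loops. Peaks below the q-value threshold and loops of under 12 read pairs are not in the lists, so an absent peak or loop means that none was called at this depth.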
